A study of Mus musculus with 16 samples.

Results

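Acat1, Bdh1, Oxct1 and Slc16a1, genes of ketone body synthesis, transport and use, were followed in mouse liver. They were chosen by name, as the genes whose annotated symbol on the array is one of these 4, and they are 4 of the 30142 named genes measured. Each of them has 1 probe set, a group of array probes read as a single value, so no choice between probe sets was needed. The study measured total RNA of liver on Affymetrix arrays, 16 arrays in 4 groups of 4. Mice underwent partial hepatectomy (PHx), the surgical removal of part of the liver, or a sham operation, and liver was taken at 12 h. In Ppara△Hep mice the gene Ppara, which encodes the nuclear receptor PPARα, was disrupted in hepatocytes, while Pparafl/fl mice carry the floxed gene intact and served as wild type. The 4 groups are thus sham Pparafl/fl, sham Ppara△Hep, PHx Pparafl/fl and PHx Ppara△Hep, written below as fl/fl and △Hep. The sources used here give no driver of the hepatocyte deletion, strain, age or sex, and other liver cells of △Hep mice keep the gene by the stated design. Titles give each array a number of its own but do not say that it marks a separate mouse, so p-values cover only the scatter among the arrays of a group, which may be technical in part.

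Ketone bodies are water-soluble fuels that the liver makes from fat when glucose is scarce and exports to brain, heart and muscle. In hepatocyte mitochondria, ACAT1 joins acetyl-CoA units into acetoacetyl-CoA, from which acetoacetate is made, and BDH1 reduces acetoacetate to beta-hydroxybutyrate. The monocarboxylate transporter MCT1, encoded by Slc16a1, carries ketone bodies, lactate and pyruvate across the plasma membrane, and in other tissues OXCT1 activates acetoacetate with succinyl-CoA so that it can be burned, a step that hepatocytes are known to lack. PPARα is the best known activator of ketogenesis in fasting.

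PPARα binds DNA with its partner RXR at paired copies of the half-site AGGTCA, so the stretch before the start site is shown for Slc16a1, the member that rose after PHx, and Bdh1, the member that fell most. The sequences are the 250 bases upstream of each RefSeq start in mouse build GRCm38.p6, 5′ to 3′ on the plus strand, which is the strand of both genes. Capitals mark GGGTCA, a variant half-site, and the E-box CACGTG. For Slc16a1 the window is chr3:104638414-104638663, and for Bdh1, with 2 listed starts, chr16:31422047-31422296 and chr16:31428503-31428752.
Slc16a1: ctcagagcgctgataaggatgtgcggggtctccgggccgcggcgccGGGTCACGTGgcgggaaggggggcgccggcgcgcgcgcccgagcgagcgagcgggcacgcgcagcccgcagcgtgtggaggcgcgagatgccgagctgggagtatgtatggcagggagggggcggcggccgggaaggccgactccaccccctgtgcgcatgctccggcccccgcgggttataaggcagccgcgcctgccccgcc
Bdh1 start 1: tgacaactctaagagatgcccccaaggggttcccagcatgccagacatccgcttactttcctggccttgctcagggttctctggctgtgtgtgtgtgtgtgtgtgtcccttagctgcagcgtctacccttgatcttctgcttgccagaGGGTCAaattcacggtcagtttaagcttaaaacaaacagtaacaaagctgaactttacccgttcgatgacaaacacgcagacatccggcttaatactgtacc
Bdh1 start 2: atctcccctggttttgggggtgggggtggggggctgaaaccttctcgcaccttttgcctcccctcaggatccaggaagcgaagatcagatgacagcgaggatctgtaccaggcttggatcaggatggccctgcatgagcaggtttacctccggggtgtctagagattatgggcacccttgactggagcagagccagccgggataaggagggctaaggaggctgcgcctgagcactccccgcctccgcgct
The Slc16a1 window is rich in G and C (76.4%), against 49.6% for the first Bdh1 start and 60.8% for the second. In Slc16a1, GGGTCA lies 204 to 199 bases before the start and overlaps the E-box at 200 to 195, so the capitals form 1 run. The Slc16a1 window also holds the GC box GGGCGG at 85 to 80 and TATAA at 26 to 22 bases before the start, overlapped by a match on the minus strand at 27 to 23. GGGTCA lies 102 to 97 bases before the first Bdh1 start, and the second Bdh1 window holds none of the motifs searched. The Oxct1 window, not printed, has GGGTCA on the minus strand 145 to 140 bases before the start. Both strands were searched in windows of the same length before all 32851 RefSeq starts listed, of which 11.6% held GGGTCA, 6.02% CACGTG, 32.7% GGGCGG and 22.8% TATAA. The plain half-site AGGTCA, present in 14% of windows, and the tandem repeat AGGTCANAGGTCA, present in 0.0335%, were in none of the 4 windows of members. These are letter matches only, and Acat1 is named without a sequence.

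Levels are RMA log2 values, on which a step of 1 is a doubling of signal, and levels of different genes are not compared because their probes differ. Correlations between arrays of a group across genes ran from 0.986 to 0.997, and no pair of arrays held identical values. Array weights from limma, lower for arrays that scatter more, ran from 0.499 for PHx fl/fl array 3 to 1.65 for sham △Hep array 2. Array medians over all probe sets were 2.05 ± 0.02 for sham and 2.17 ± 0.02 for PHx (SD, n = 8 each). Subtracting them moved the median change of all genes from -0.04 to -0.15 in fl/fl and from 0.01 to -0.14 in △Hep, and the share of called genes that were higher from 36.5% to 14.8% and from 45.8% to 13.9%. Each gene was set against the 95th percentile of the array's negative control probe sets, which was 4.77 to 4.95 on sham arrays and 5.13 to 5.36 on PHx arrays. Acat1 and Slc16a1 were above it on 16 of 16 arrays, Bdh1 on 12 and Oxct1 on 0. Hepatocyte marker genes, 9 of which were measured, had mean levels above that percentile in each of the 4 groups, and their summed log2 level ran from 14.0 to 14.2 over the 4 groups.

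Ppara itself came first as a check of the labels. Its levels on arrays 1 to 4 were 6.45, 7.02, 6.99 and 6.77 in sham fl/fl, 6.29, 6.43, 6.43 and 6.05 in sham △Hep, 6.97, 6.08, 5.68 and 7.24 in PHx fl/fl, and 6.26, 5.02, 5.28 and 4.70 in PHx △Hep. All 4 sham △Hep arrays lay below all 4 sham fl/fl arrays, while after PHx array 1 of △Hep lay above arrays 2 and 3 of fl/fl. Whether its probes lie in the deleted part is not known from the labels. The difference of △Hep from fl/fl was -0.50 ± 0.33 after sham (standard error; limma adjusted p = 0.681) and -1.17 ± 0.33 after PHx (adjusted p = 0.326), and neither passed. Arrays 2 and 3 of PHx fl/fl stood apart from arrays 1 and 4, here and in the values of Acat1 and Bdh1 below. From sham to PHx the change of Ppara was -0.98 ± 0.33 in △Hep (adjusted p = 0.035), with overlapping arrays, and -0.32 ± 0.33 in fl/fl (adjusted p = 0.498). Ppara was above the negative controls' percentile on 14 of 16 arrays, all but PHx △Hep arrays 2 and 4, so its lowest levels are close to background signal. Without arrays 2 and 3 of PHx fl/fl the genotype difference after PHx was -1.79 ± 0.32 (adjusted p = 0.0225). The pair was known from earlier results of the same data, so results without it are no independent support.

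**Figure D1:**
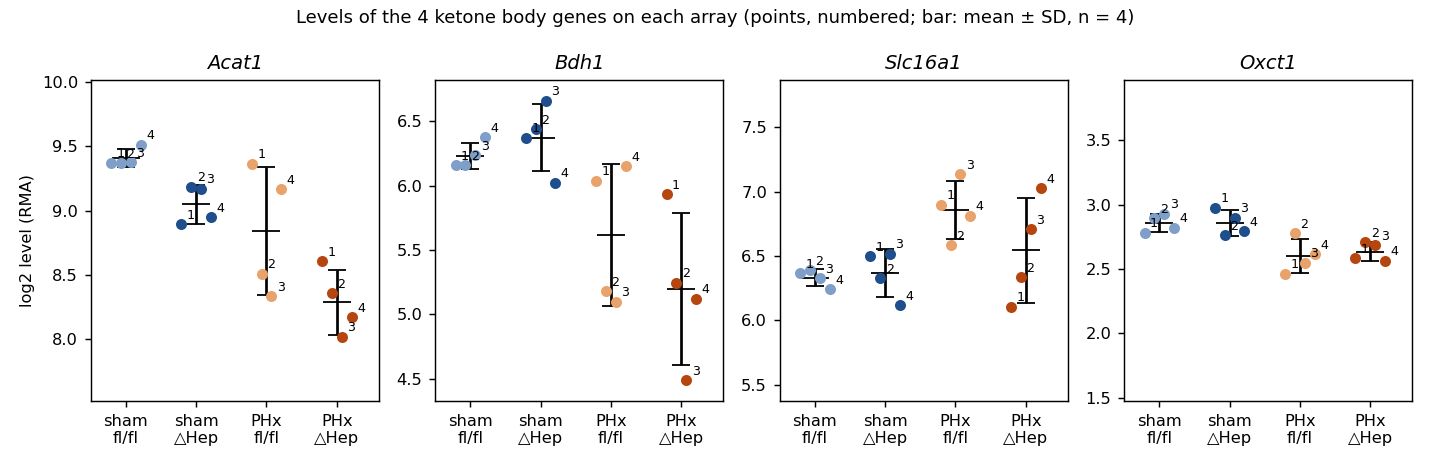
Log2 level of each gene (y axis, RMA units, the same span in each panel) on the 4 arrays of each group (x axis); numbered points are arrays and bars are the mean ± SD, n = 4. Acat1 and Bdh1 are lower after PHx, with arrays 2 and 3 of PHx fl/fl below arrays 1 and 4, Slc16a1 is highest in PHx fl/fl, and Oxct1 lies between 2.46 and 2.98 on all arrays.

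Acat1, whose mitochondrial thiolase makes the acetoacetyl-CoA that starts ketogenesis and also works in isoleucine breakdown, fell after PHx in both genotypes. Its levels on arrays 1 to 4 were 9.37, 9.37, 9.37 and 9.51 in sham fl/fl and 9.36, 8.51, 8.33 and 9.16 in PHx fl/fl. The groups did not overlap, but PHx array 1 was almost level with the sham arrays, while arrays 2 and 3 were far below. In △Hep the levels were 8.89, 9.19, 9.17 and 8.95 after sham and 8.61, 8.36, 8.02 and 8.17 after PHx. All 4 PHx arrays were below all 4 sham arrays there too.

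The PHx change of Acat1 was -0.56 ± 0.19 in fl/fl, a fall of 1.48-fold (95% interval -0.97 to -0.16, adjusted p = 0.0321), and -0.76 ± 0.19 in △Hep, a fall of 1.69-fold (95% interval -1.16 to -0.36, adjusted p = 0.00644). In whole-liver RNA, fewer cells of a type and less RNA per cell cannot be told apart. The fall in △Hep passed under all 26 alternatives run, with adjusted p from 0.00023 to 0.0245. The value in fl/fl rested on PHx fl/fl arrays 2 and 3: it was -0.45 without the first of them, -0.39 without the other (adjusted p = 0.101 each) and -0.14 ± 0.14 without both (adjusted p = 0.497). Leaving out any 1 of the sham fl/fl arrays also ended the call, with adjusted p from 0.0543 to 0.0737, while the value stayed between -0.58 and -0.53. Cyclic loess (adjusted p = 0.124), quantile normalization (0.12) and a fit of the 2 groups alone (0.0736) also ended that call. Over its alternatives the adjusted p ran from 0.00607 to 0.497.

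Bdh1, the inner-membrane dehydrogenase that reduces acetoacetate to beta-hydroxybutyrate, had the largest PHx change of the 4 genes in △Hep. Its levels on arrays 1 to 4 were 6.37, 6.44, 6.66 and 6.02 in sham △Hep and 5.93, 5.25, 4.49 and 5.12 in PHx △Hep. All PHx arrays were lower, although array 1 after PHx was close to sham array 4. In fl/fl the levels were 6.16, 6.16, 6.24 and 6.37 after sham and 6.04, 5.18, 5.10 and 6.15 after PHx. Arrays 2 and 3 of PHx fl/fl were about a whole log2 unit below the sham arrays, and arrays 1 and 4 lay just under them.

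Bdh1 fell by 1.18 ± 0.27 on the log2 scale in △Hep, or 2.26-fold (95% interval -1.76 to -0.59, adjusted p = 0.00447). That call held under all 26 alternatives, with adjusted p from 0.000746 to 0.0176. In fl/fl its change was -0.62 ± 0.27 (95% interval -1.20 to -0.03, adjusted p = 0.0989), which did not pass although the groups did not overlap. It passed with array medians subtracted (-0.72, adjusted p = 0.0436) and without PHx fl/fl array 4 (-0.79, adjusted p = 0.0429), and its adjusted p over all alternatives ran from 0.0429 to 0.762. The upper end came without PHx fl/fl arrays 2 and 3, where the change was -0.14. The 4 arrays at which Bdh1 was not above the negative controls' percentile were all PHx arrays, 2 in each genotype, so its lowest levels are close to background signal and its fold change may be understated.

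Slc16a1, the transporter for export of ketone bodies and exchange of lactate, was the member that rose. Its levels on arrays 1 to 4 were 6.37, 6.39, 6.33 and 6.24 in sham fl/fl and 6.90, 6.58, 7.13 and 6.81 in PHx fl/fl. Every PHx fl/fl array was above every sham fl/fl array, and arrays 2 and 3, low for Acat1 and Bdh1, were here the lowest and the highest of their group. In △Hep the levels were 6.50, 6.33, 6.52 and 6.12 after sham and 6.11, 6.34, 6.71 and 7.03 after PHx. The △Hep groups overlapped, PHx array 1 being the lowest of all 8 and array 4 the highest.

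Slc16a1 rose by 0.53 ± 0.16 in fl/fl, or 1.44-fold (95% interval 0.18 to 0.88, adjusted p = 0.0228). The call was lost without sham fl/fl array 4 (0.50, adjusted p = 0.0552), without PHx fl/fl array 3 (0.44, adjusted p = 0.0698) and without PHx fl/fl arrays 2 and 3 together (0.53, adjusted p = 0.0709), the range over its alternatives being 0.00647 to 0.0709. In △Hep the change was 0.18 ± 0.16 (95% interval -0.17 to 0.53, adjusted p = 0.437). The difference between these changes, -0.35 ± 0.23 (95% interval -0.84 to 0.14, adjusted p = 0.603), was within error, so a rise in 1 genotype alone was not shown.

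Oxct1, the enzyme that lets other tissues use acetoacetate, was near the background of the arrays in every group. Its levels on arrays 1 to 4 were 2.78, 2.90, 2.93 and 2.82 in sham fl/fl, 2.98, 2.76, 2.90 and 2.79 in sham △Hep, 2.46, 2.78, 2.55 and 2.62 in PHx fl/fl, and 2.58, 2.71, 2.69 and 2.57 in PHx △Hep. Within each genotype the PHx arrays were below the sham arrays, although the nearest arrays in fl/fl, both at 2.78, differed only beyond the digits given. All 16 values were only 0.42 to 1.12 above the median of the negative controls, between percentiles 60.2 and 78.4 of those probe sets.

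The PHx change of Oxct1 was -0.26 ± 0.07 in fl/fl (adjusted p = 0.0107) and -0.22 ± 0.07 in △Hep (adjusted p = 0.0226), both called. The first was lost under cyclic loess (-0.18, adjusted p = 0.0734), and its adjusted p ran from 0.000855 to 0.0734. The second was lost without sham △Hep array 1 or 3 or PHx △Hep array 1 or 4 (adjusted p from 0.0537 to 0.0727), and ran from 0.000709 to 0.0727. Over the same arrays the median of the negative controls rose from 1.94 for sham to 2.02 for PHx. The median of the antigenomic background probe sets fell from 1.24 to 1.01, and that of the ERCC spike-in probe sets from 1.80 to 1.60. The part of background signal in these small shifts was not tested. Some markers of non-hepatocyte liver cells were also lower after PHx. Of 10 Kupffer cell and macrophage genes 4 were lower in fl/fl and 7 in △Hep. In each genotype 5 of 9 sinusoidal endothelial genes were lower and 1 higher, and 4 of 8 stellate cell genes were lower. In fl/fl 2 of 5 cholangiocyte, 0 of 9 neutrophil, 2 of 6 lymphocyte and 2 of 4 blood genes were lower. In △Hep these counts were 0, 0, 0 and 1, and most genes of these lists were below the negative controls' percentile on all arrays. Of the 9 hepatocyte markers 3 were lower and 0 higher in each genotype, where 20.8% and 17.5% of all genes were lower in fl/fl and △Hep. The summed log2 level of the Kupffer cell list ran from 8.69 to 9.29 in sham fl/fl against 8.41 to 8.84 in PHx fl/fl, and from 8.88 to 9.42 in sham △Hep against 8.40 to 8.98 in PHx △Hep. Adgre1 and Timd4 of that list, Pecam1 of the endothelial list and Col1a1, Col3a1 and Des of the stellate list were not above the negative controls' percentile on any array. The endothelial list ran from 8.78 to 8.87 in sham fl/fl, 8.71 to 8.82 in sham △Hep, 8.41 to 8.93 in PHx fl/fl and 8.35 to 8.94 in PHx △Hep. The stellate list ran from 8.37 to 8.56, 8.29 to 8.68, 7.88 to 8.33 and 7.68 to 8.20 in the same order. The part of these cells in the Oxct1 result was not tested. All 5 skeletal muscle and all 4 adipocyte markers measured, from tissues that use ketone bodies or could adhere to a sample, were below the percentile on every array.

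Counted together, 3 of the 4 genes passed in fl/fl, 1 higher and 2 lower, where 32.7% of all genes passed, 11.9% higher and 20.8% lower. In △Hep 3 passed, all lower, where 32.3% of all genes passed, 14.8% higher and 17.5% lower. PHx and sham arrays did not overlap for 4 of the 4 genes in fl/fl and 3 in △Hep, against 32% of all genes in each genotype. With only the 9294 genes of mean level above 4 tested, which leaves out Oxct1, 4015 passed in fl/fl and 4380 in △Hep, a larger share. A call for PHx was thus common among all genes, and 4 members are too few to be set apart from that background.

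Between genotypes no member passed. After sham, 0 of 4 passed in limma and 0 had an unadjusted p below 0.05, where 0.0133% of all genes passed and 9.26% had such a p. After PHx 0 passed and 1, Acat1, had an unadjusted p below 0.05, where 0.143% of all genes passed and 7.47% had such a p. Averaged over both operations the counts were again 0 and 1, against 0.219% and 5.83% of all genes. The △Hep minus fl/fl value of Acat1 was -0.36 ± 0.19 after sham (95% interval -0.76 to 0.04, adjusted p = 0.591) and -0.55 ± 0.19 after PHx (95% interval -0.96 to -0.15, unadjusted p = 0.0101, adjusted p = 0.474). Its 4 sham △Hep arrays all lay below the 4 sham fl/fl arrays, as for 4.43% of all genes, while after PHx the groups overlapped. Averaged over operations the difference was -0.46 ± 0.13 (95% interval -0.74 to -0.17, unadjusted p = 0.0038, adjusted p = 0.402).

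This Acat1 result turned on the pair of PHx fl/fl arrays named above. Without arrays 2 and 3 the difference after PHx was -0.98 ± 0.14 (adjusted p = 0.00458) and the averaged one -0.67 ± 0.09 (adjusted p = 0.00244), both called, and under all other alternatives neither was. Adjusted p ran from 0.00458 to 0.894 for the former and from 0.00244 to 0.64 for the latter. The arrays left out held the lowest Acat1 levels of PHx fl/fl (8.51 and 8.33). Leaving them out had to widen the difference, so the calls without them are no support for it. For Bdh1 the difference was 0.14 ± 0.27 after sham (95% interval -0.45 to 0.73) and -0.42 ± 0.27 after PHx (95% interval -1.01 to 0.17). For Slc16a1 it was 0.03 ± 0.16 after sham (95% interval -0.31 to 0.38) and -0.31 ± 0.16 after PHx (95% interval -0.66 to 0.03). For Oxct1 it was 5.3e-05 ± 0.07 after sham (95% interval -0.15 to 0.15) and 0.03 ± 0.07 after PHx (95% interval -0.11 to 0.18).

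The test of whether PHx acted differently in the genotypes called no gene at all (0% of all genes; 0 of 4 members had an unadjusted p below 0.05, against 11.3% of all genes). The difference of the PHx changes was -0.56 ± 0.39 for Bdh1 (95% interval -1.39 to 0.27, adjusted p = 0.623) and -0.20 ± 0.27 for Acat1 (95% interval -0.76 to 0.37, adjusted p = 0.832). These intervals still allow sizable differences in either direction for Bdh1 and Acat1.

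**Figure D2:**
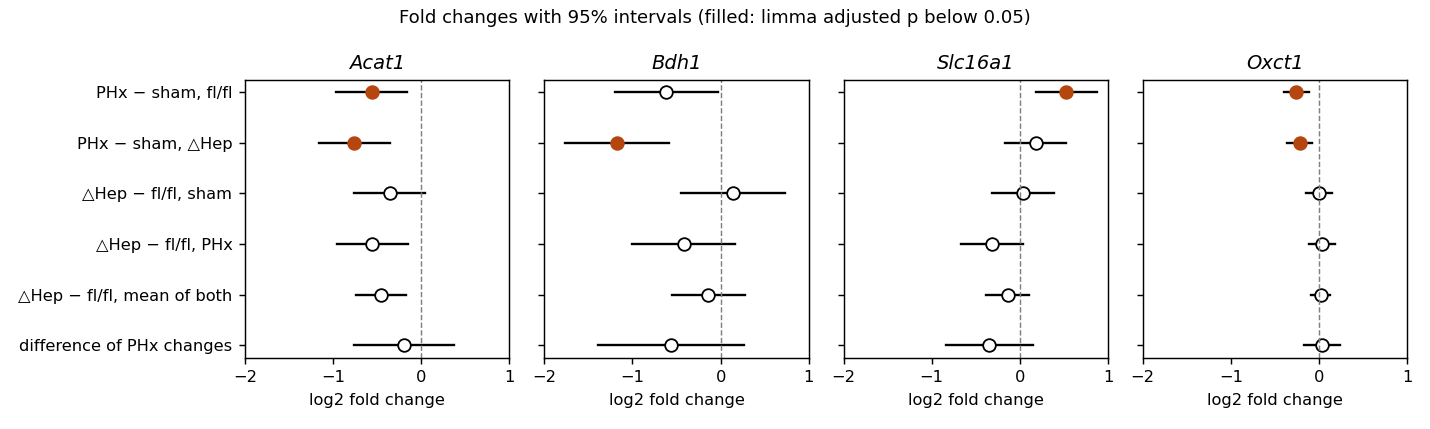
Log2 fold changes (x axis) of the 4 genes in the 6 comparisons (y axis, the lowest being the PHx change in △Hep minus that in fl/fl); lines are 95% intervals and filled points passed at limma adjusted p below 0.05. Filled points occur only in the PHx comparisons, 3 in each genotype, and the change of Bdh1 in △Hep, -1.18, is the farthest from 0.

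The order of mean levels differed by gene. Acat1 ran from sham fl/fl (9.41 ± 0.07, SD, n = 4) through sham △Hep (9.05 ± 0.15) and PHx fl/fl (8.84 ± 0.50) to PHx △Hep (8.29 ± 0.25), and the arrays of neighbours overlapped except for the 2 sham groups. Bdh1 ran from sham △Hep (6.37 ± 0.26) and sham fl/fl (6.23 ± 0.10), which overlapped, to PHx fl/fl (5.62 ± 0.55) and PHx △Hep (5.20 ± 0.59), which overlapped too. Slc16a1 ran from PHx fl/fl (6.86 ± 0.23) through PHx △Hep (6.54 ± 0.41) and sham △Hep (6.36 ± 0.19) to sham fl/fl (6.33 ± 0.07), with every pair of neighbours overlapping. Oxct1 was at 2.86 in both sham groups, with 2.64 ± 0.07 in PHx △Hep and 2.60 ± 0.13 in PHx fl/fl. The spread of Acat1, Bdh1 and Slc16a1 was wider in the PHx groups than in the sham group of the same genotype, while the fit shares 1 spread per gene, so its errors are too wide for sham and too narrow for PHx.

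Array by array, the levels of Acat1 and Bdh1 went with that of Ppara only in part after PHx. In PHx fl/fl, arrays 1 and 4 were high for all 3 genes and arrays 2 and 3 low for all 3. In PHx △Hep array 1 was the highest for all 3. There array 3 was above arrays 2 and 4 for Ppara (5.28) but the lowest for Acat1 (8.02) and Bdh1 (4.49). Over the sham arrays Pearson r with Ppara was 0.79 for Acat1 and -0.003 for Bdh1. Slc16a1 did not share the order of Ppara, as PHx △Hep array 1, highest for Ppara, was its lowest at 6.11. These orders are a description of single arrays, and what sets the arrays apart was not tested.

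**Figure D3:**
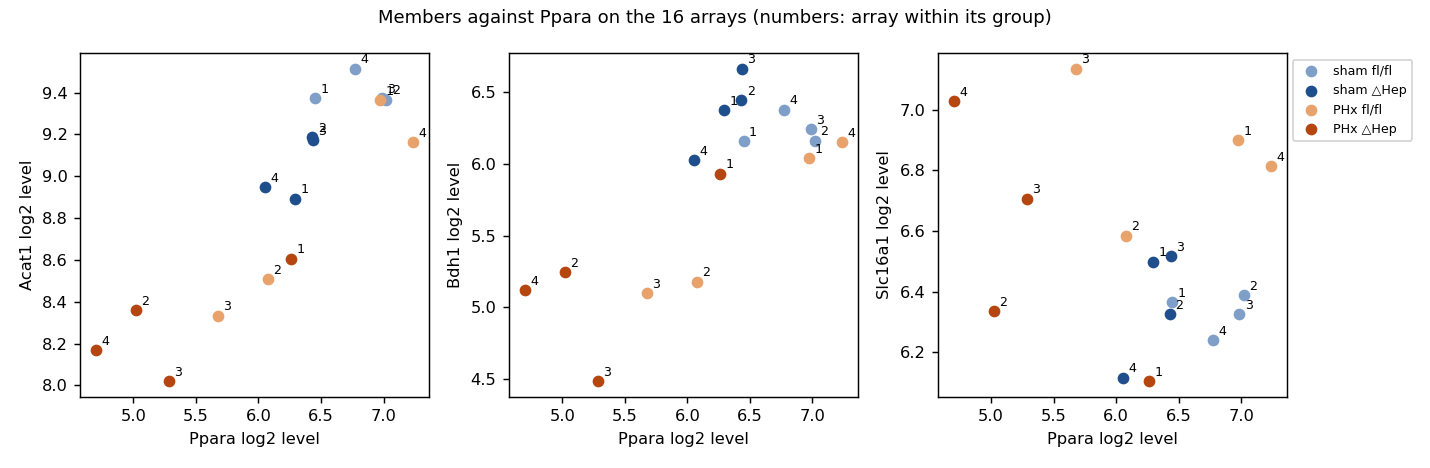
Log2 levels of Acat1, Bdh1 and Slc16a1 (y axes) against the log2 level of Ppara (x axes) on the 16 arrays, coloured by group and numbered within it. Arrays 2 and 3 of PHx fl/fl sit among or near the PHx △Hep arrays for Acat1 and Bdh1, arrays 1 and 4 sit near the sham arrays, and Slc16a1 shows no such arrangement.

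The genes most like each member were sought among protein-coding genes of mean log2 level above 4, by Pearson r over the 16 arrays after centring each operation on its mean. The mean PHx change thus did not enter, though its difference between genotypes did. For Acat1 they were Acad11 (r = 0.95), an acyl-CoA dehydrogenase, Hadha (r = 0.95), a subunit of the mitochondrial trifunctional protein of beta-oxidation, and Hsdl2 (r = 0.93). For Bdh1 they were Slc25a21 (r = 0.93), a mitochondrial carrier, Fbp1 (r = 0.92), an enzyme of gluconeogenesis, and Crot (r = 0.91), the peroxisomal carnitine octanoyltransferase. For Oxct1 they were Mlkl (r = 0.86), Msr1 (r = 0.84), a macrophage scavenger receptor, and Gltp (r = 0.83). For Slc16a1 they were Chkb (r = 0.85), Timm23 (r = 0.85) and Csrp3 (r = 0.83), but within the sham arrays alone these r were only 0.04 to 0.22. The points share arrays, normalization and genotype groups, and the best of 6841 or 6842 candidates is high by selection, so these values are descriptive. Oxct1 was above the negative controls' percentile on 0 of 16 arrays, and Gltp, at most 4.45, was below it on every array. Group means of Mlkl and Msr1, 4.55 to 4.91, were close to or below it. All PHx levels of Slc25a21 and Chkb, at most 4.70 and 5.10, were below it too. The r of these genes thus involve signal near background. Of the 6 genes most like Acat1 and Bdh1, Acad11 (-0.88), Hadha (-0.54), Slc25a21 (-0.82) and Crot (-1.39) fell after PHx in △Hep, while Hsdl2 (-0.25) and Fbp1 (-0.09) did not pass. The arrays of Slc25a21 overlapped. Of all genes 17.5% were lower there, and in a fit of the 9294 genes of mean level above 4, 3761 were. The 6 genes were picked on the same arrays, so their changes are no independent support. In fl/fl Crot fell too (-0.98, limma adjusted p = 0.0101), and the other 5, between -0.48 and 0.30, did not pass. Hsdl2 was lower in △Hep averaged over operations (-0.97 ± 0.16, adjusted p = 0.0181).

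Of other genes of ketone synthesis, Bdh2 and Hmgcll1 are given here, and both were below the negative controls' percentile on all arrays. Bdh2, a cytosolic dehydrogenase of the same reaction type, was lower after PHx by 0.55 ± 0.08 in fl/fl (adjusted p = 0.000149) and 0.27 ± 0.08 in △Hep (adjusted p = 0.0192), between levels of 3.71 and 2.88. The call in △Hep was lost without PHx △Hep array 3 and under cyclic loess. Hmgcll1 did not pass in either genotype. In the list of ketone use and the cytosolic acetoacetyl-CoA pool, 2 of 4 genes were lower after PHx in each genotype, with 1 higher in △Hep. Of all genes 20.8% were lower in fl/fl and 17.5% in △Hep, where 14.8% were higher. The list medians were -0.53 and -0.44, against -0.04 and 0.01 for all genes. Hmgcs1, the cytosolic HMG-CoA synthase that feeds cholesterol synthesis, fell by 1.55 ± 0.34 in fl/fl (adjusted p = 0.00306) and 1.38 ± 0.34 in △Hep (adjusted p = 0.00579). Aacs, which activates acetoacetate in the cytosol for lipid synthesis, fell by 1.07 ± 0.16 in fl/fl (adjusted p = 0.000181) and 0.96 ± 0.16 in △Hep (adjusted p = 0.000407). It was above the negative controls' percentile on all 8 sham arrays, on 0 of the 4 PHx fl/fl arrays and on 1 of the 4 PHx △Hep arrays. With the PHx fl/fl arrays set no lower than that percentile, the mean of Aacs was 1.28-fold lower after PHx in fl/fl, a value that carries the scatter of the arrays. Without PHx fl/fl arrays 2 and 3 the count lower in fl/fl was 1. The gene that rose in △Hep, Oxct2b, a relative of Oxct1 known from testis, changed by 0.48 ± 0.14 (adjusted p = 0.0171) but was below the percentile on all arrays, and did not pass without sham △Hep array 3, with array medians subtracted or under quantile normalization.

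Of 16 other genes of monocarboxylate transport, 10 were below the negative controls' percentile on all arrays. In fl/fl 2 were higher and 4 lower after PHx, and in △Hep 2 and 2, with list medians of -0.06 and 0.04. These counts were near the shares of all genes, 11.9% higher and 20.8% lower in fl/fl and 14.8% and 17.5% in △Hep. Subtracting array medians turned the list counts into 1 and 9 in fl/fl and 0 and 4 in △Hep. The count higher in △Hep was 1 without PHx △Hep array 3 or 4 or sham △Hep array 2 or 3. Bsg, the basigin that escorts MCT1 to the membrane, fell while Slc16a1 rose or did not pass: it changed by -0.34 ± 0.07 in fl/fl (adjusted p = 0.00214) and -0.49 ± 0.07 in △Hep (adjusted p = 0.000113). Slc16a12, a creatine transporter, changed by -0.86 ± 0.25 in fl/fl (adjusted p = 0.015) and by -0.46 ± 0.25 in △Hep, which did not pass. Slc16a5, a transporter family member, rose by 1.20 ± 0.27 in fl/fl (adjusted p = 0.00419) and was at 0.44 ± 0.27 in △Hep (adjusted p = 0.246), though it exceeded the percentile on only 1 array. Slc16a7, encoding the related transporter MCT2, and Slc16a6, a beta-hydroxybutyrate transporter, did not pass in either genotype; Slc16a6 was at 0.54 ± 0.23 and 0.41 ± 0.23. Between genotypes 0 of 16 passed after sham, after PHx or averaged, with 3, 1 and 2 at an unadjusted p below 0.05. Without PHx fl/fl array 3, 1 was lower both after PHx and averaged.

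Mitochondrial beta-oxidation, which supplies the acetyl-CoA for ACAT1, held genes that were lower in △Hep, and 13 of its 14 measured genes were above the negative controls' percentile on all arrays. In △Hep relative to fl/fl, 1 of 14 was lower after sham, 5 after PHx and 7 averaged over operations, none higher, with medians of -0.39, -0.71 and -0.51, against -0.02, 0.01 and -0.01 for all genes. Acadvl, the very long chain acyl-CoA dehydrogenase, was lower by 0.86 ± 0.12 after sham (adjusted p = 0.0166) and by 1.12 ± 0.12 after PHx (adjusted p = 0.00114). After PHx, Slc25a20, the carnitine-acylcarnitine carrier, was at -1.54 ± 0.21 (adjusted p = 0.00623), Cpt2, the inner carnitine palmitoyltransferase, at -1.29 ± 0.16 (adjusted p = 0.0028), Etfdh, which passes electrons on to ubiquinone, at -1.08 ± 0.15 (adjusted p = 0.00752), and Acadl, the long chain dehydrogenase, at -0.83 ± 0.13 (adjusted p = 0.0183). Genes of fat oxidation are known PPARα targets, and earlier results of the same data had shown fat oxidation genes lower in △Hep, so this is no independent support. The count after PHx was 8 without PHx fl/fl array 3, 10 without arrays 2 and 3, and 0 in a fit of the PHx groups alone. The single call after sham was lost when array 1, 2 or 4 of sham △Hep, or any 1 of sham fl/fl, was left out. Without PHx fl/fl arrays 2 and 3 the counts were 3 after sham and 11 averaged over operations.

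After PHx the same list moved less evenly. In △Hep 9 of 14 genes were lower and none higher (median -0.41), where 17.5% of all genes were lower and 14.8% higher. In fl/fl 3 were lower and 1 higher (median -0.13), where 20.8% of all genes were lower and 11.9% higher. The count lower in fl/fl was thus near the share of all genes. Genes of mean level above 4 had median changes of -0.19 in △Hep and -0.16 in fl/fl. The difference between the PHx changes was called for 0 of 14 genes of the list, with 2 at an unadjusted p below 0.05. Without PHx fl/fl arrays 2 and 3 the direction in fl/fl turned, with 2 lower, 4 higher and a median of 0.16. Acads, the short chain dehydrogenase, fell by 0.81 ± 0.11 in fl/fl (adjusted p = 8.11e-05) and 0.93 ± 0.11 in △Hep (adjusted p = 1.86e-05). Hadh, which acts on short and medium chains, fell by 0.92 ± 0.20 in △Hep (adjusted p = 0.00277) and was at -0.53 ± 0.20 in fl/fl (adjusted p = 0.0548). Acadl was the gene higher in fl/fl, at 0.38 ± 0.13 (adjusted p = 0.0349), and it did not pass when array 1 or 4 of PHx fl/fl, or array 1, 2 or 3 of sham fl/fl, was left out. The count lower in △Hep came down to 2 under cyclic loess and 3 under quantile normalization. The count lower in fl/fl was 5 without PHx fl/fl array 1 or 4, without PHx △Hep array 3, or with array medians subtracted, and 1 under cyclic loess or quantile normalization.

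Of 8 genes that control or sense ketogenesis, 4 were higher and 3 lower after PHx in fl/fl, and 0 higher and 3 lower in △Hep, with medians of 0.43 and 0.04. Of all genes 11.9% were higher and 20.8% lower in fl/fl, and 14.8% and 17.5% in △Hep. Pdk4, the kinase that spares pyruvate when fat is burned, rose by 2.99 ± 0.59 in fl/fl (adjusted p = 0.0016) and was at 1.12 ± 0.59 in △Hep (adjusted p = 0.165). Its mean level after sham was 4.34 in fl/fl and 5.79 in △Hep, a difference that was not called, and after PHx it was 7.33 and 6.91. Ppargc1a, the coactivator of oxidative genes, rose by 1.83 ± 0.44 in fl/fl (adjusted p = 0.00574) and was at 0.65 ± 0.44 in △Hep (adjusted p = 0.278). Hcar2, a receptor for beta-hydroxybutyrate, rose by 1.45 ± 0.49 in fl/fl (adjusted p = 0.0357) and was at 1.28 ± 0.49 in △Hep (adjusted p = 0.0611). The difference of the PHx changes between genotypes passed for none of Pdk4, Ppargc1a and Hcar2 (limma adjusted p = 0.424, 0.499 and 0.955). Hcar2 and Ppargc1a exceeded the negative controls' percentile on only 2 arrays each. Pdk4 and Ppargc1a were above it on none of the sham fl/fl arrays. With those arrays set no lower than the percentile, the rises between group means in fl/fl were 5.57-fold and 2.08-fold. These values carry the scatter of the arrays and are not lower limits. Creb3l3, a fasting-induced activator of Fgf21 and partner of PPARα, rose by 0.39 ± 0.07 in fl/fl (adjusted p = 0.000584) and was lower in △Hep than in fl/fl after PHx by 0.73 ± 0.07 (adjusted p = 0.000651). Fgf21, a hormone of the fasting liver, did not pass in fl/fl (0.47 ± 0.28, limma adjusted p = 0.216), and it was above the negative controls' percentile on 0 of 16 arrays.

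The 3 genes of this list that fell in both genotypes were Foxa2, Sirt3 and Sirt5. Foxa2, a factor known to activate ketogenic genes, changed by -0.54 ± 0.13 in fl/fl and -0.74 ± 0.13 in △Hep. Sirt3, a mitochondrial deacetylase, changed by -0.33 ± 0.11 and -0.58 ± 0.11, and Sirt5 by -0.25 ± 0.08 and -0.31 ± 0.08. Sirt3 and Sirt5 were above the negative controls' percentile on 0 of 16 arrays and Foxa2 on 1, so the levels behind these changes were close to background. The count of 3 lower in fl/fl became 1 when array 2 or 3 of PHx fl/fl or array 3 or 4 of sham fl/fl was left out, or under cyclic loess or quantile normalization, and 0 without PHx fl/fl arrays 2 and 3.

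As a reference for PPARα itself, 10 other known targets were measured. In △Hep relative to fl/fl, their values ran from -4.20 to 1.12 after sham and from -4.45 to -0.13 after PHx. Mean levels in sham △Hep and sham fl/fl were 5.70 and 4.58 for Acot1, and 3.84 and 2.88 for Acot3. Acot1 was above the negative controls' percentile on 7 of 16 arrays and Acot3 on 0. Of the 10 targets, 0 were called after sham (6 at an unadjusted p below 0.05 in limma), 1 was lower after PHx and 3 were lower averaged over operations. The 3 were Cyp4a14 (-4.32 ± 0.78, adjusted p = 0.0349), Cyp4a31 (-2.96 ± 0.43, adjusted p = 0.00651) and Vnn1 (-2.34 ± 0.34, adjusted p = 0.00576). Cyp4a14 was above the negative controls' percentile on 10 of 16 arrays, Cyp4a31 on 11, Vnn1 on 3 and Cidec on 5, and in △Hep Vnn1 was above it on none of the arrays. The count after PHx, which was Cidec (-2.40 ± 0.38, adjusted p = 0.0183), was 0 without PHx △Hep array 2 or PHx fl/fl array 1 or 2, 2 without PHx △Hep array 3, 3 without PHx △Hep array 4 and 5 without PHx fl/fl array 3. Averaged over operations, Acat1 was at -0.46 and the other 3 members were between -0.14 and 0.02. Cyp4a genes are near-identical copies whose probes can share signal, so their values are uncertain in that respect.

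**Figure D4:**
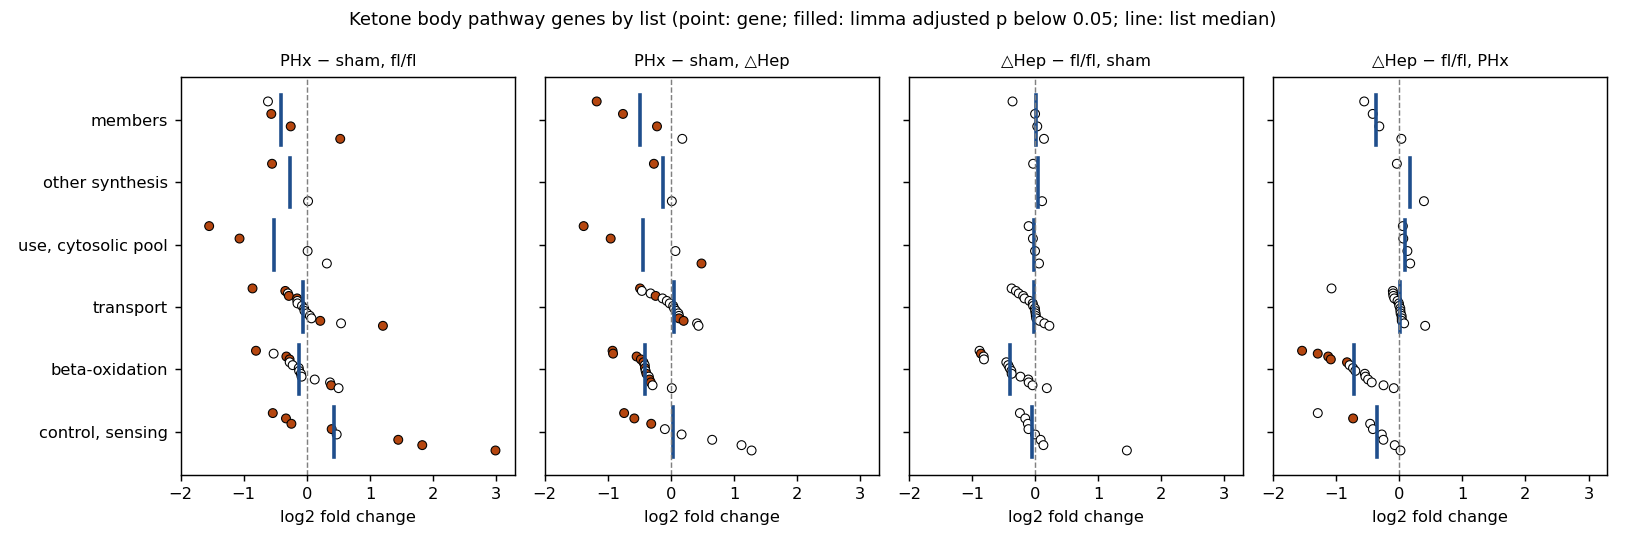
Log2 fold changes (x axis) of the measured genes of each list (y axis) in 4 comparisons; points are genes, filled where limma adjusted p was below 0.05, and lines are list medians. The members' medians are -0.41 and -0.49 for PHx in fl/fl and △Hep, and the beta-oxidation medians of △Hep minus fl/fl are -0.39 after sham and -0.71 after PHx.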

How the data were processed

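Liver RNA was measured on 16 Affymetrix arrays, 4 per group of operation and genotype, and samples were grouped by the labels. The deposited table holds 1 log2 value per probe set and array, from RMA according to the submitters' processing notes. This method subtracts probe background, normalizes across arrays and summarises probes, and changes close to background come out compressed. No software version or genome build is named in the sources used here.

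Of 72688 probe sets, 30604 have 1 gene symbol in the platform annotation, 2146 several and 39938 none. A total of 827 symbols were updated through a RefSeq gene table, and the probe set of highest mean was kept for each of 355 genes with several, leaving 30142 genes, 19046 of them protein-coding. The table was tested with limma 3.58.1 in R 4.3.3 with data.table version 1.17.8: lmFit with 1 mean per group on all 16 arrays, 12 residual degrees of freedom, eBayes, 6 contrasts, two-sided. Adjusted p is Benjamini-Hochberg over the 30142 genes, called at below 0.05. Errors of fold changes are standard errors and intervals are 95%; precision is limited by how many arrays there are. The pipeline was tested on simulated data.

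The members, gene lists, tests, alternatives and naming rule were chosen with earlier results of these data known. Named by rule were the members, Ppara, Bsg and the 3 genes most like each member. Up to 8 genes per list called in any comparison were also picked, by size of change. Of the genes so picked, Plin2, Slc16a9, Slc16a11, Slc5a8 and Slc5a12 are not described. Other genes named for a list or count were chosen after their values were seen. Lists are described by counts and medians. Cell type lists covered hepatocytes, Kupffer cells, endothelium, stellate cells, cholangiocytes, neutrophils, lymphocytes, blood, adipocytes and muscle. Alternatives were 3 scalings, a filter on levels above 4, protein-coding genes only, trended robust eBayes, array weights, the 2 groups alone, all probe sets, each array left out, and PHx fl/fl arrays 2 and 3 left out. Numbers of arrays follow sample order and pair nothing. Promoter sequences are RefSeq's (GRCm38.p6), matched for 3 of the 4 members.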

Additional observations from a re-analysis of the deposited data

Results flagged for a closer look

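The level of Acat1 on array 4 of sham fl/fl, 9.51, stood above the other 3 arrays of its group, which were all at 9.37. The gap was 0.945 of the range of the group, beyond the 95% critical value of Dixon's test for 4 samples. In all 16 sets of arrays (4 genes in 4 groups) were examined, and chance flags about 1 in 20 of them. Without that array the PHx change of Acat1 in fl/fl was -0.53 (adjusted p = 0.0737, limma).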

How the results depend on the processing

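Of the members' values under the alternatives, 573 kept their direction and side of the threshold, 18 lost a call, 4 gained one and 15 changed sign, the last all at small values. The falls of Acat1 and Bdh1 after PHx in △Hep kept their call under every alternative run. The fall of Acat1 in fl/fl was -0.39 under cyclic loess (adjusted p = 0.124), -0.38 under quantile normalization (0.12), -0.56 with the 2 groups alone (0.0736) and -0.14 without PHx fl/fl arrays 2 and 3 (0.497). Leaving that pair out gave -0.98 for Acat1 by genotype after PHx and -0.67 averaged, and 0.53 for Slc16a1 after PHx in fl/fl (0.0709). Bdh1 in fl/fl was -0.72 with array medians subtracted (0.0436), and Oxct1 in fl/fl was -0.18 under cyclic loess (0.0734). For Oxct1 the sign of △Hep minus fl/fl turned after PHx under cyclic loess (-0.0084) and after sham with array weights (-0.0019), and that of the difference of PHx changes under median subtraction (-0.0078), cyclic loess (-0.0753) and quantile normalization (-0.0566). The cause of these shifts was not tested. With 1 array left out in turn, the PHx change in fl/fl ran from -0.74 to -0.39 for Acat1, from -0.79 to -0.44 for Bdh1 and from 0.44 to 0.62 for Slc16a1, and in △Hep from -0.25 to -0.18 for Oxct1. The genotype difference after sham ran from -0.0400 to 0.0322 for Oxct1 and from -0.0164 to 0.117 for Slc16a1. For Oxct1 it ran from -0.0110 to 0.0932 after PHx and from -0.0055 to 0.0466 averaged, and the difference of PHx changes from -0.0111 to 0.0932. Of 72 list counts, 45 stayed within 1.5 times their value under every alternative run. Calls over all genes numbered 9868 of 30142 for PHx in fl/fl and 9734 in △Hep. The highest numbers were 15420 and 15350, with array medians subtracted. The lowest were 4015 and 4380, with only the 9294 genes of levels above 4 tested, a larger share of the genes tested. Calls for genotype numbered 4 after sham (1 to 38), 43 after PHx (0 with the 2 groups alone to 176 without PHx fl/fl arrays 2 and 3) and 66 averaged (35 to 170). For the difference of PHx changes they numbered 0 (up to 19 without that pair). No paired analysis was possible because array numbers were given in sample order. Low signal limits Oxct1 most.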
